A study of Drosophila melanogaster with 2 samples.

Results

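Peaks of Engrailed-GFP at divergent promoters were examined in chromatin immunoprecipitation and sequencing (ChIP-seq) of whole Drosophila melanogaster embryos. A divergent promoter was defined as a pair of annotated transcription start sites of different genes, on opposite strands and pointing away from each other, at most 1000 bp apart. A peak belonged to it when its summit, the single base that the deposited list gives for the region, lay within 500 bp of at least 1 of the start sites. Of the 2226 peaks that passed the authors' IDR procedure (irreproducible discovery rate, a ranking check between replicates), 479 met this definition (21.5%, exact Clopper-Pearson 95% interval 19.8 to 23.3). A further 619 summits (27.8%) lay within 500 bp of start sites that form no such pair, called single promoters here, and 1128 (50.7%) lay farther from any start site. The study had 1 group with 2 biological replicates, labelled 1 and 3, of embryos aged 0 to 16 h, male and female together, of strain 3T-GFP. They carried a stable transgene for Engrailed with GFP at its C-terminus, and the pull-down used an antibody to GFP, per the description. The label of the antibody itself reads en. No group without the fusion protein and no other condition was analysed here, so no test over samples could be made. Peaks of 1 experiment are not replicates, and all shares below are descriptions whose intervals cover counting error only. Each deposited region carries a signal value on a scale that no source at hand gives, and sequencing depth is not known from the region lists. Since the embryos were whole, the fraction of cells in which a site was occupied and the strength of occupancy in each cell cannot be told apart.

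Engrailed is a homeodomain protein, best known as a transcriptional repressor in the posterior compartment of each segment, where it helps to set the segment border and Hedgehog signalling. Homeodomains bind short AT-rich words with a TAAT core. Divergent promoters are common in the compact fly genome. They often serve genes that most cells use, and the stretch between the start sites is usually held free of nucleosomes. Many carry the DNA replication-related element (DRE), bound by Dref, or CGATA words, bound by the insulator protein BEAF-32, and housekeeping promoters also carry the word known as promoter motif 1.

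The sequences below show what lay under strong peaks of this kind. All are the plus strand of the RefSeq release 6 assembly, which shares the dm6 coordinates of the deposited lists. Capitals mark TAATTA (homeodomain core), TCAATTAA (Engrailed word), TATCGATA (DRE) or GGTCACAC (core of motif 1) on either strand, so that TTAATTGA and GTGTGACC are the reverse complements of the Engrailed word and of the motif 1 core. The first 4 windows hold the summit and 50 bp on either side at the strongest pairs, named with the minus-strand gene first.
Ugalt and eIF2Bbeta, chrX:2703845-2703945: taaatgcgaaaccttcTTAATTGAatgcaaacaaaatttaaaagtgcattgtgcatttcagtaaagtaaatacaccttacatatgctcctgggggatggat
PNPase and Gprk2, chr3R:31404602-31404702: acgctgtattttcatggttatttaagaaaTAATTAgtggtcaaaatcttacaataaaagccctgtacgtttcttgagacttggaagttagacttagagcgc
Chro and Ssl1, chr3L:22878827-22878927: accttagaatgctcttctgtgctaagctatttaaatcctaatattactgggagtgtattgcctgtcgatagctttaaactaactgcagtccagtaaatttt
mRpS23 and CenG1A, chr2L:13835408-13835508: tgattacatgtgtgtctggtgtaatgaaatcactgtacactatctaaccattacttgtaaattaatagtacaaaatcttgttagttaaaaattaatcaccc
The next 3 run from the start site of the minus-strand gene to that of the plus-strand gene, so that each is the whole interval of a short divergent promoter with the summit inside it. The DRE marked between Fbw5 and CG9147 lies more than 50 bp from the summit and is not in the word counts below.
Art3 and mRpS10, chr3R:15229408-15229665: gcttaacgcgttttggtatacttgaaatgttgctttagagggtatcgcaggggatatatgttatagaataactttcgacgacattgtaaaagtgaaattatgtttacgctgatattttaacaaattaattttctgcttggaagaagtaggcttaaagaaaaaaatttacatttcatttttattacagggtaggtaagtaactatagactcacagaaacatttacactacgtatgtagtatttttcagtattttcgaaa
Fbw5 and CG9147, chr2L:6065953-6066087: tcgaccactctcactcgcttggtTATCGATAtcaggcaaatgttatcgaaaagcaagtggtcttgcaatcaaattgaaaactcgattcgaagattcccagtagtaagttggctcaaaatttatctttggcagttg
Tcs5 and CHMP2B, chr3L:5139395-5139619: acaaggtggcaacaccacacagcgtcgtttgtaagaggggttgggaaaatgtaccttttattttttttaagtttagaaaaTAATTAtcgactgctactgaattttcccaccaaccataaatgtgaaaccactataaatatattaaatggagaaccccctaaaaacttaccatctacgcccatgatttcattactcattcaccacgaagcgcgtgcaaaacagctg
The last 4 are summit windows with the DRE and with the motif 1 core. They were taken at the strongest peaks with each word on the arms whose sequences are printed. As it turned out, 3 of them belong to genes of cytoplasmic ribosomal proteins.
RpS25 and CG4820, chr3R:11216290-11216390: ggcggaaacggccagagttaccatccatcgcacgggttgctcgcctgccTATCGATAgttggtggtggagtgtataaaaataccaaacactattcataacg
Ttc1 and CG14882, chr3R:16442971-16443071: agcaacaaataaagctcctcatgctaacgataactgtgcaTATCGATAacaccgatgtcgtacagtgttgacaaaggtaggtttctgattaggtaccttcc
Ripalpha and RpL7, chr2L:10200980-10201080: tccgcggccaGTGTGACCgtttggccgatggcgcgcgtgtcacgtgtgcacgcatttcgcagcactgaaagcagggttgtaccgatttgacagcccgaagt
CG7130 and RpLP0, chr3L:22076014-22076114: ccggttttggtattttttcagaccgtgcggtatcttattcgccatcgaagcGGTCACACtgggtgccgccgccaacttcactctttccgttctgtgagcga
The windows at Ugalt, PNPase, Chro and mRpS23 were AT-rich, with a G+C share of 33.7%, 34.7%, 35.6% and 28.7%. Those with motif 1 at RpL7 and RpLP0 were not, with 60.4% and 53.5%.

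The summits lay mostly in the gap between the start sites. Of the 479 summits, 361 (75.4%, interval 71.3 to 79.2) fell between the start sites of the closest pair, although the gap made up on average 25.6% of the window that the definition searched. Among divergent promoter regions of the pooled list that did not pass IDR, 1138 of 2712 summits (42.0%, 40.1 to 43.9) fell between. The summit was 84 bp from the nearest start site of its closest pair in the median (quartiles 40.5 to 127.5). It was 246 bp from the farther start site of that pair (155.5 to 475). The peak itself covered both start sites in 170 cases (35.5%), and both lay within 500 bp of the summit in 369 (77.0%). Summits between start sites at least 200 bp apart were not concentrated at the centre: 109 of 313 (34.8%, 29.6 to 40.4) lay in the middle 1 of 3 equal parts of the gap.

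**Figure D1:**
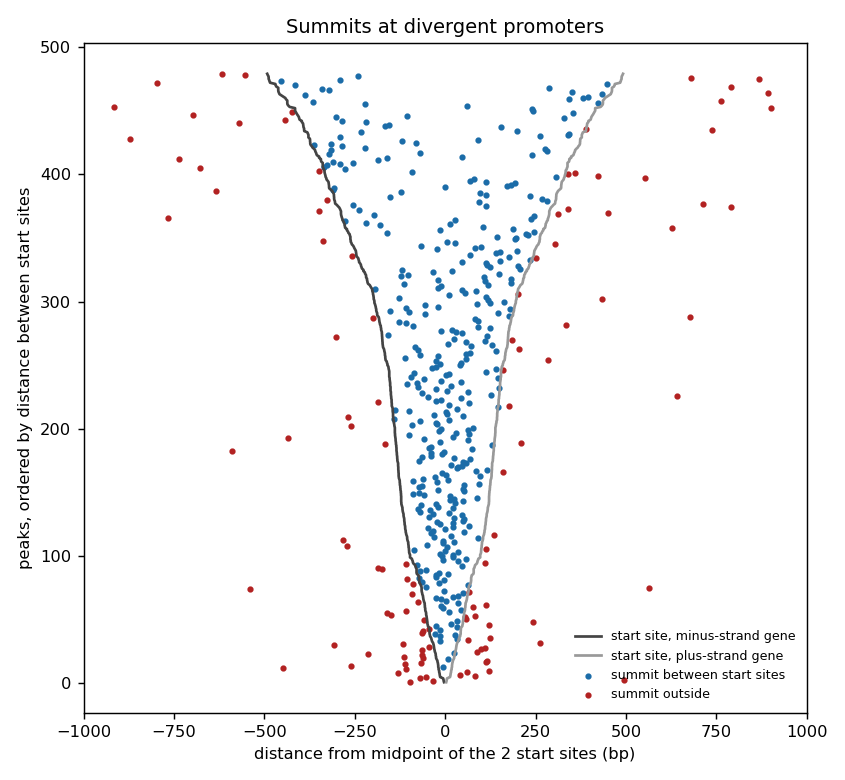
Each of the 479 peaks at divergent promoters is a row, ordered by the distance between the start sites of its closest pair; the lines are the start sites and the points the summits, in bp from the midpoint. The 361 summits between the start sites are blue, and the 118 outside are red.

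The share between the start sites was lowest where the gap was narrowest. A narrower gap is also a smaller part of the window searched. That part was not worked out by class. With start sites at most 100 bp apart the share between was 13 of 50 peaks (26%), with 101 to 200 bp it was 64.3%, with 201 to 300 bp it was 89.4%, and with 401 to 500 bp it was 94.1%. In the wider classes it ranged from 61.1% to 85.7%. Up to 200 bp the gap is a smaller part of the window than the mean of 25.6% over all members. The shares of 26% and 64.3% were above that mean, so they do not show summits avoiding narrow gaps. The distance between the start sites nearest the summit had a median of 307 bp in members (quartiles 219 to 555), and the distance between the closest start sites of all annotated pairs a median of 307 bp as well (168 to 530.8). Annotated pairs 201 to 300 bp apart had an IDR summit in 132 of 662 cases (19.9%, 17.0 to 23.2), and pairs 401 to 500 bp apart in 29 of 336 (8.63%, 5.86 to 12.2), with the other classes from 9.66% to 18.9% and no steady trend.

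Summits at single promoters were placed farther away. Their median distance from the nearest start site was 201 bp (quartiles 106.5 to 317). Here any annotated start site counted, whereas at divergent promoters only start sites of divergent pairs did. A member can thus lie nearer to another start site than its stated distance. Within 100 bp of a start site so counted lay 62.6% of the summits at divergent promoters (58.1 to 67.0) and 23.9% of those at single promoters (20.6 to 27.5). More than 200 bp away lay 11.7% and 50.1%. A divergent promoter has a start site on either side, which shortens the distance by construction. In the 138 members whose start sites were at least 500 bp apart the median was 119 bp. Downstream of the nearest start site so counted lay 118 of 479 summits at divergent promoters (24.6%) and 115 of 619 at single promoters (18.6%).

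**Figure D2:**
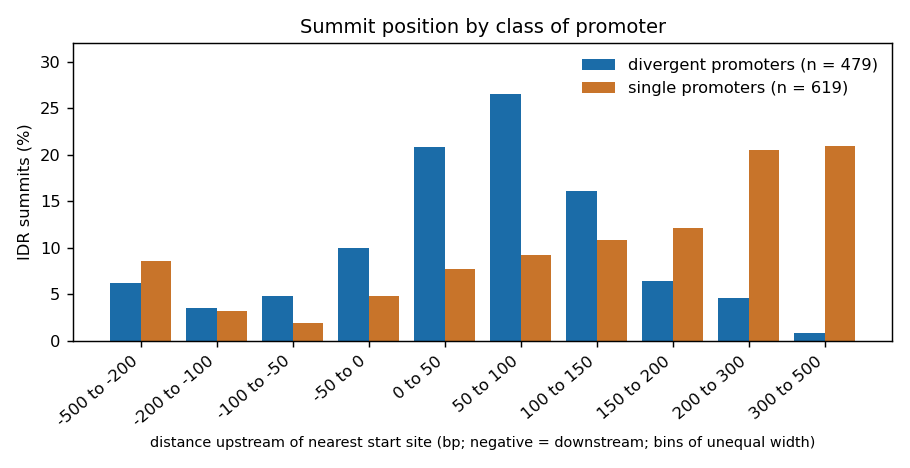
Bars give the percentage of IDR summits in each class of position relative to the nearest start site, in bp upstream, for divergent promoters (479 summits) and single promoters (619). At divergent promoters only start sites of divergent pairs counted, and at single promoters any start site. At divergent promoters 63.7% of summits lie 0 to 150 bp upstream, and at single promoters 28.1%.

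By annotation, 268 of the 479 summits (55.9%, 51.4 to 60.5) were intergenic, 126 (26.3%) lay in an untranslated or noncoding exon, 84 (17.5%) in an intron and 1 in a coding exon. At single promoters introns held more, 233 of 619 (37.6%, 33.8 to 41.6), and intergenic sequence less (41.4%, 37.5 to 45.3). An intron can lie between the start sites of a pair where a gene also has transcripts that start farther away.

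Divergent promoters carried an IDR summit more densely than single ones. The annotation held 3434 divergent pairs, which join 6371 of the 18164 genes considered (35.1%). An IDR summit lay within 500 bp of 532 pairs (15.5%, 14.3 to 16.8). These pairs are not independent, since 48 of the 479 peaks lay at 2 or more pairs and 1 peak at 21. Over all genes, 1475 (8.12%) had an IDR summit within 500 bp of an own start site. For genes in divergent pairs it was 954 (15.0%, 14.1 to 15.9) and for genes in no pair 521 of 11793 (4.42%, 4.05 to 4.80). Among coding genes alone the shares were 16.3% and 5.35%, and among noncoding genes 6.39% and 2.10%. A peak between start sites counts for both genes, so the length of sequence gives a second scale: 107.7 IDR summits per Mb of divergent promoter windows (4.45 Mb) against 45.2 per Mb of single promoter windows (13.7 Mb). Regions of the pooled list, peaks and background together, were also denser, with 717.3 against 442.4 per Mb. Of all pooled regions, 7.42% were IDR peaks. At divergent promoters it was 479 of 3191 (15.0%, 13.8 to 16.3), at single promoters 619 of 6059 (10.2%, 9.47 to 11.0) and elsewhere 5.44%.

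**Figure D3:**
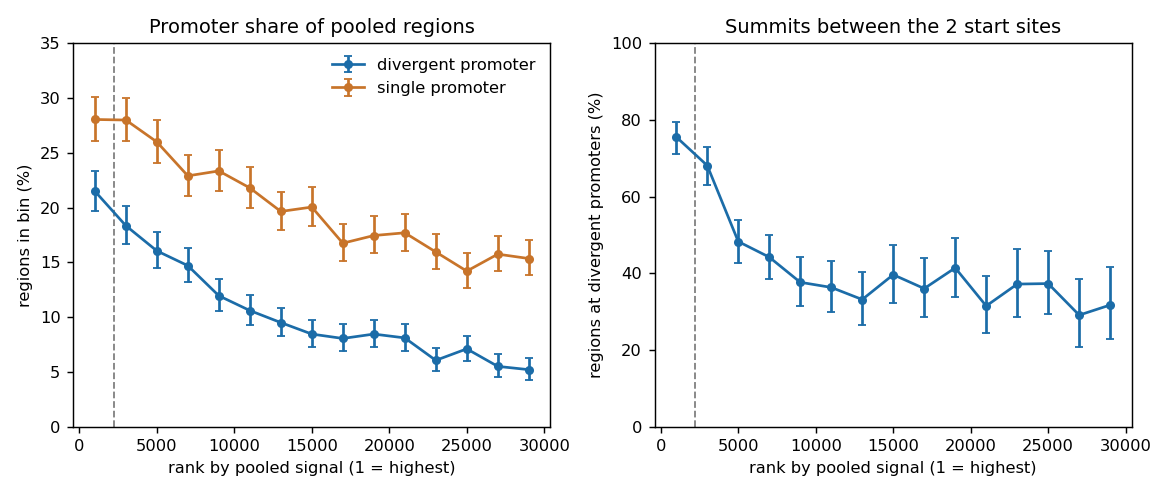
Pooled regions in bins of 2000 ranks, from highest to lowest signal, with the percentage at divergent and at single promoters (left) and, of the regions at divergent promoters, the percentage with the summit between the start sites (right); bars are exact 95% intervals and the dashed line is the end of the IDR list at rank 2226. Divergent promoters go from 21.5% to 5.20%, and summits between the start sites from 75.6% to 31.7%.

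Along the pooled list, the share at divergent promoters went from 21.5% in ranks 1 to 2000 to 5.20% in the last 2000, and the share at single promoters from 28.1% to 15.4%. The position inside the pair also differed by rank. Summits between the start sites were 75.6%, 68.1%, 48.3% and 44.2% of divergent promoter regions in the first 4 bins and 31.7% in the last. Within the IDR list the classes had much the same signal, with a median of 97.0 at divergent promoters (quartiles 76.5 to 139.9), 102.6 at single promoters and 95.1 elsewhere. Of the 100 strongest IDR peaks, 29 were at divergent promoters, and of the 12 strongest, 5.

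Pairs of protein-coding genes made up most of the set. Both genes were coding at 423 peaks, 54 peaks lay at a coding gene paired with a noncoding one, and 2 at a pair of noncoding genes. The share of annotated pairs with an IDR summit was 17.3% (15.9 to 18.8) for coding pairs, 10.6% (8.26 to 13.2) for mixed pairs and 3.52% (1.15 to 8.03) for noncoding pairs. In mixed pairs the summit was nearer the coding start site in 30 of 54 (55.6%, 41.4 to 69.1). By chromosome arm, divergent promoters held 136 of 513 IDR peaks on 3R (26.5%) and 55 of 405 on X (13.6%), with 2L, 2R and 3L from 21.2% to 23.0%. Chromosome 4 held 2 of 14. The share of pairs with an IDR summit was 19.6% on 3R and 11.3% on X. A single 3R peak, at the pre-mod(mdg4) genes, counted for 21 pairs, so the 3R share rests in part on that locus.

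The 12 strongest peaks at divergent promoters had pooled signals from 416.7 to 993.3, and 8 of the 12 summits lay between the start sites. The strongest, between Ugalt, a transporter of UDP-galactose, and eIF2Bbeta, a subunit of the exchange factor that recharges the initiation factor eIF2, had a pooled signal of 993.3, with 371.6 in replicate 1 and 625.1 in replicate 3. It had rank 3 in replicate 1 and rank 2 in replicate 3, and its summit at chrX:2703895 was 43 bp upstream of Ugalt and 676 bp upstream of eIF2Bbeta. Next came the pair of PNPase, a mitochondrial ribonuclease, and Gprk2, a kinase that acts on Smoothened in the Hedgehog pathway, with 726.7 (272.1 and 456.8 in replicates 1 and 3). Both summits are in the AT-rich windows printed above, one with the Engrailed word and the other with the homeodomain core.

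At Chro and Ssl1, the genes of the interband protein Chromator and of a TFIIH subunit, the pooled signal was 708.9, with 263 and 447.9 in the replicates. Here the start sites are 105 bp apart and the summit lay outside the gap, 107 bp downstream of the Chro start, in its untranslated exon. The next 3 pairs hold a mitochondrial ribosomal protein gene. mRpL41 with CG8079 had 673.5 (279.3 and 399.2), and mRpS10 with Art3, an arginine methyltransferase gene, had 653.4 (261.6 and 393.8) and the rank 12 in the pool and in both replicates. mRpS23 with CenG1A, which encodes a GTPase-activating protein for Arf, had 636 (229.4 and 413.9), with the summit 386 bp from the mRpS23 start.

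The remaining 6 lay at Fbw5 and CG9147 (539.2), Pdrg1 and Pal1 (487.8), Tcs5 and CHMP2B (487.4), CG11309 and CG7632 (452.8), tank and CG12194 (420.7), and eIF6 and asRNA:CR45928 (416.7). CHMP2B is a subunit of the ESCRT-III membrane remodelling complex, and eIF6 keeps the large ribosomal subunit from joining too early. In replicate 1 these 6 peaks had signals from 159.3 to 227.7 and in replicate 3 from 256.9 to 334.4. The summits at CG11309, tank and asRNA:CR45928 lay downstream of those genes' start sites, and those at CG9147 and Pal1 lay between the start sites of the pair but in an intron of the named gene. The Tcs5 and CHMP2B summit was intergenic. The signal of replicate 3 was above that of replicate 1 at all 12.

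Genes of several roles shared these promoters, and their counts are read against the 975 of 6371 genes of divergent pairs (15.3%) that belong to a pair with a member peak. Cytoplasmic ribosomal protein genes stood at 44 of 59 (74.6%). Translation initiation factors followed at 8 of 22 (36.4%), and genes of insulator and interband proteins at 5 of 14 (35.7%). Genes of these 2 lists in no divergent pair had an IDR summit at 0 of 22 and 1 of 8. The counts include genes whose own start site lay over 500 bp from the summit, such as eIF2Bbeta (676 bp) and eIF4A (688 bp). Most other lists were near the background. Mitochondrial ribosomal proteins had 10 of 58 (17.2%), oxidative phosphorylation 8 of 47 (17.0%), RNA polymerase subunits and general transcription factors 11 of 58 (19.0%), vesicle traffic 13 of 72 (18.1%), aminoacyl-tRNA synthetases 5 of 23 (21.7%), replication and chromosome maintenance 6 of 32 (18.8%), the nuclear pore 4 of 22 (18.2%), Polycomb and trithorax groups 3 of 18 (16.7%) and chaperones 4 of 25 (16%). Somewhat lower were the mitotic cell cycle with 4 of 31 (12.9%), the proteasome with 3 of 26 (11.5%), segment polarity with 1 of 9 (11.1%), DNA repair with 3 of 29 (10.3%) and splicing factors with 3 of 36 (8.33%). Among noncoding genes, tRNA and snoRNA genes had 16 of 126 (12.7%) and long noncoding RNA genes 48 of 563 (8.53%).

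Named genes of the smaller lists had the following pooled signals, with replicates 1 and 3 in that order. Among initiation factors after eIF2Bbeta and eIF6, the peak of eIF1, which helps to select the start codon, had 140.2 (75.17 and 63.32) and is shared with RpL28, while eIF4EHP, a repressive cap-binding protein, had 124.1 (39.02 and 78.49). Insulator and interband genes after Chro were Dref, whose product binds the DRE, with 181.1 (77.58 and 99.64), pzg with 100.1 (51.07 and 47.86), and Cp190 with 91.98 (30.16 and 65.98). BEAF-32 was the fifth. Dref shares its promoter with RpL13.

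The segment polarity list, which holds the pathway in which Engrailed is best known, was represented by ci, the gene of the transcription factor of Hedgehog signalling. Its peak, 4 bp from a ci start site on chromosome 4 and paired with asRNA:CR43957, had a pooled signal of 70.01, near the lower end of the set, with 39.55 in replicate 1 and 25.30 in replicate 3. The Polycomb and trithorax members were Sfmbt (113.6), brm (73.8) and Su(z)12 (68.9), which encode a DNA-anchored Polycomb protein, the ATPase of the Brahma remodeller and a subunit of PRC2.

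Other lists reached intermediate signals. Hsp83, the Hsp90 gene, had 212.5 (96.78 and 122.7) and Hsp26 had 189.8 (54.77 and 132.8). Among transcription genes the Mediator subunits MED30 and MED15 had 202.8 and 191.2, Brf, a TFIIIB subunit, had 164.4, and Polr2H had 152.5. SerRS led the aminoacyl-tRNA synthetases with 198.9, Vps33B the vesicle traffic genes with 262.4, ND-MWFE, a complex I subunit, oxidative phosphorylation with 165.1, and Rpn5 the proteasome with 124.8. SMC2, a condensin subunit, and Ercc1, a repair endonuclease subunit, share 1 peak with a signal of 150. Nup37 shares its peak of 372.4 with RpS27. Bub3, a spindle checkpoint gene, had 97.9, and B52, a splicing factor gene, had 104.8 with the summit 1 bp from its start site. A tRNA gene, tRNA:Tyr-GTA-1-8, lay 189 bp from a summit with a signal of 281.8, and the strongest peak next to a long noncoding RNA gene was that of mRpL41 and CG8079, 430 bp from lncRNA:CR44463.

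Pairs with a cytoplasmic ribosomal protein gene differed from the other pairs in several values. Of 61 such pairs, 46 had an IDR summit (75.4%), against 486 of 3373 other pairs (14.4%). The ribosomal protein genes that are in no divergent pair had one at 15 of 34 (44.1%), so the high share was not found at divergent promoters alone. The strongest were RpS27 with Nup37, at 372.4 (172.9 in replicate 1, 199 in replicate 3), RpL7 with Ripalpha, at 346.4 (147.4 and 197.4), RpL41 with NaCP60E, at 231.6 (109.8 and 119), and RpL13A with Dph4, at 224.7 (113.1 and 117). The 48 peaks at such pairs had a median pooled signal of 126.1, against 94.4 at the 431 others. The summit sat at the ribosomal protein gene rather than at its partner in 44 of 48, with a median of 27 bp to the former's start site (quartiles 12.75 to 69.75) and 291 bp to the latter's.

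The base composition and the replicates differed too. The median G+C share of the summit windows was 46.0% at ribosomal protein pairs and 33.7% at the others. In the others the signal of replicate 3 was above that of replicate 1 by 0.57 on the log2 scale in the median (SD 0.51 over 428 peaks in both lists), and replicate 1 was higher at 47 of them. At the 48 ribosomal protein peaks the median difference was 0.06 (SD 0.40), and replicate 1 was higher at 19. Ribosomal protein genes at single promoters had the same feature, with -0.11 (SD 0.52, 15 peaks) against 0.64 (SD 0.51, 603 peaks) at the other single promoters. Among the other divergent pairs, split into 4 equal groups by G+C share, the medians from the lowest to the highest share were 0.58, 0.51, 0.73 and 0.47. At a G+C share of 40% or more, the median was 0.01 (SD 0.37) at 35 ribosomal protein peaks and 0.50 (SD 0.56) at 112 others. The 13 ribosomal protein peaks under 40% had 0.44 (SD 0.43). The median distance from summit to the nearest start site of the pair also differed, with 27 bp at ribosomal protein pairs and 89 bp at the others. The part of distance and signal in the replicate difference was not tested.

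**Figure D4:**
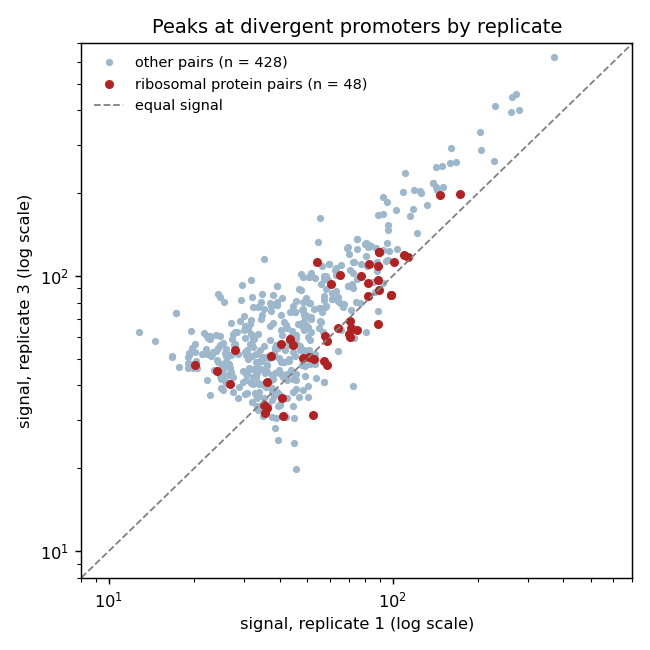
Signal in replicate 3 against replicate 1, both on log scales, for the 476 peaks at divergent promoters found in both lists; red points are the 48 at pairs with a cytoplasmic ribosomal protein gene and the dashed line marks equal signal. Red points lie nearer to the line, with a median log2 difference of 0.06 against 0.57 for the 428 others.

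The summit windows were AT-rich in general. The median G+C share within 50 bp of the summit was 34.7% at divergent promoters, 34.7% at single promoters and 33.7% at other IDR peaks. At divergent promoter regions outside the IDR list it was 41.6%. The midpoints of all 3434 annotated pairs had 33.7%, and so did those of the 2902 pairs without an IDR summit. At 400 bp from the summit the share was 47.0% in members and 43.1% at single promoters.

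**Figure D5:**
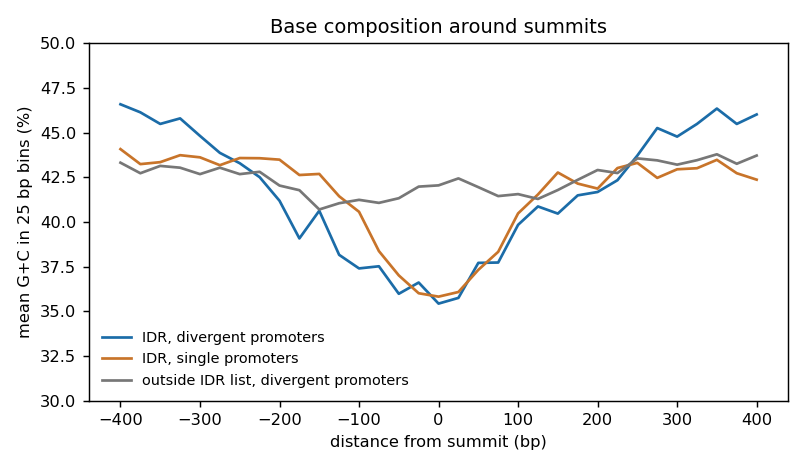
Mean G+C percentage in 25 bp bins against distance from the summit, for IDR peaks at divergent promoters, IDR peaks at single promoters and pooled regions at divergent promoters outside the IDR list. Both IDR classes dip at the summit, and the pooled regions outside the list show no comparable dip.

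The homeodomain words counted, TAATTA and TCAATTAA as exact matches, were infrequent and not more common than at the midpoints of annotated pairs. Other words with a TAAT core were not counted. Base composition, which was not adjusted for, differed between the sets. The lower quartile of the G+C share was 25.7% at midpoints, 29.7% in members and 34.65% at divergent regions outside the IDR list. TAATTA on either strand lay within 50 bp of 42 of 479 summits (8.77%), against 6.79% at single promoters, 7.80% at other IDR peaks, 6.12% at divergent regions outside the IDR list and 10.9% at the midpoints of all annotated pairs. In 4 equal groups by signal, from the strongest to the weakest, it was found in 11, 8, 12 and 11 members. The longer TCAATTAA, which does not contain TAATTA, was found in 5 members (1.04%), at Ugalt with eIF2Bbeta, cact with CG4278, Dg with mRpL34, gammaSnap1 with sei, and Agpat2 with prg, against 1.34% of midpoints.

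Words of housekeeping promoters were more frequent at promoter summits than at other IDR summits. TATCGATA, the DRE, lay at 25 summits (5.22%), with 1.78% at single promoters, 0.266% at other IDR peaks, 4.50% at divergent regions outside the list and 4.25% at pair midpoints. CGATA, which every DRE contains, had 22.8%, 17.6%, 10.7%, 22.1% and 21.8% in the same order. In members the DRE share was 3.62% without replicate 1, 6.135% without replicate 3 and 3.48% without ribosomal protein pairs. The CGATA share in members was 19.15%, 25.36% and 20.88% with these settings, and 17.99% in the stronger 1 of 2 equal parts of the IDR list. Of the 25 summits with a DRE, 10 were at ribosomal protein pairs, as were 4 of the 7 with GGTCACAC. For GGTCACAC the 5 shares were 1.46%, 1.78%, 0.177%, 2.62% and 2.36%, and the share in members was 3.27% without replicate 3 and 0.696% without ribosomal protein pairs. For the E-box CAGCTG they were 6.26%, 3.88%, 3.10%, 6.67% and 6.41%. The GAGA factor word GAGAG was found at 7.52% of divergent and 12.4% of single promoter summits and at 8.15% of midpoints. TATAAA had 16.5%, 15.8% and 22.3%. CACGTG lay at 1.46% of member summits (0.818% without replicate 3, 0.928% without ribosomal protein pairs) and the Zelda word CAGGTAG at 0.626% (0.409% without replicate 3). In 224 members (46.8%) none of the 10 words was present, against 42.0% of the midpoints.

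The replicates held the peaks to a like degree in each class. The IDR list was derived from these same replicates, so this overlap is in part set by the selection. Of the 479 members, 476 overlapped a region in both replicate lists, and 338 (70.6%, 66.3 to 74.6) overlapped 1 of the 2226 strongest regions in both, against 72.2% at single promoters and 67.6% elsewhere. The median signal was 42.2 in replicate 1 and 59.2 in replicate 3, a median log2 difference of 0.52 (SD 0.51 over peaks). Art3 with mRpS10 had the same rank in both replicates. The largest differences were at CG1602 with PIG-G, at rank 11960 in replicate 1 with a signal of 12.82 and rank 983 in replicate 3 with 62.43, and at ArfGAP3 with CG32452, at rank 902 (45.57) and rank 10516 (19.93).

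Most bound pairs had 1 summit. Of the 532 pairs, 511 had 1 and 21 had more. In 14 of these 21 the summits were 199 to 211 bp apart, as at RpL32 with CG7943 (207 and 96.7), Fur1 with Vps33B (262 and 129) and Herp with r2d2 (183 and 76.6), and in the others 555 to 798 bp, as at Ac78C with chb (109 and 101). The commonest peak width was 396 bp, shared by 392 members. At RpL32 with CG7943 the weaker region, of that width, began at base 30046231, next to the stronger summit at 30046230. Whether summits this close mark separate sites was not tested. Summits that close overlap the same replicate region in part: 28 members shared their strongest overlapping region of replicate 1 with another member, and 26 that of replicate 3.

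At the limits of the definition, distances are to the nearest start site that forms a divergent pair. The farthest summit kept was at 498 bp (Zn72D with Taf4, signal 78.5) and the nearest left out at 503 bp (CG32428 with isoQC, 102.7). The former lay 80 bp from another Taf4 start site, which forms no such pair. The widest pair kept had start sites 984 bp apart (Smg5 with Ance, 197.1) and the narrowest left out 1012 bp (CG9992 with CG4239, 72.7). The member of lowest signal had 65.09, and the highest divergent promoter region outside the IDR list had 65.04.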

How the data were processed

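The authors' region lists in build dm6 were used as deposited. Per the deposited text descriptions, regions were called from alignments with a control file for each replicate and for the pool, 30000 in each list, and the IDR list was derived from them. The IDR list equals the 2226 pooled regions of highest signal. Regions were ranked by the deposited signal value. Aligner, caller, IDR threshold and depth were not given in the sources used here. Lists in dm3 were not used.

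Start sites of all transcripts of 18164 genes (transposable elements left out) on 2L, 2R, 3L, 3R, 4 and X came from the Ensembl release 115 annotation. Replicate values are those of the strongest overlapping region. Words were searched on both strands within 50 bp of the summit. The class assignment was tested on a simulated annotation. Python 3.11.15, numpy 2.4.6 and scipy 1.17.1 were used. Pairs were named for the 12 strongest peaks, up to 4 genes per list of highest signal, pairs with several summits, limits of the definition and extremes of replicate rank; some of each are printed, and BEAF-32 and the genes with the Engrailed word were added after their values were seen, and signal recognition particle genes were taken out of the splicing list then. Sequences on 2R are not printed. Members, 19 gene lists and words were chosen with earlier results of these data known. Alternatives were other distances, gene sets, start sites, list lengths, each replicate alone and a wider word window. The view of the replicate difference by G+C share was added after the values were seen. One pair with several summits is not reported here.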

Additional observations from a re-analysis of the deposited data

How the results depend on the processing

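No paired analysis was possible because the design has 1 group and no test. Except where stated, each value below moved beyond its counting interval, and its cause was not tested unless the setting itself shortens the list or the window. The share of IDR summits at divergent promoters (21.5%) was 15.95% with start sites at most 500 bp apart, 19.0% with summits within 200 bp, 19.09% with coding genes and 18.6% with 1 start site per gene. The share of pairs with a summit (15.5%) was 13.66% within 200 bp, 17.29% with coding genes, 8.183% with the stronger 1 of 2 equal parts of the IDR list, which left 239 members, and 14.17% without ribosomal protein genes, a setting chosen after seeing the data. The share of unpaired genes with a summit (4.42%) was 5.205%, 2.366%, 5.667% and 2.451% with 500 bp, 200 bp, coding genes and the shorter list. Summits between start sites (75.4%) were 79.2% within 200 bp and 67.39% with 1 start site per gene, and with either replicate alone from 70% to 76.28%, the latter inside the interval. For the 10 words, 10 of 90 shares moved, 8 of them in the wider window. Depth and control, which set the signal scale, are unknown.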
